A study of Xenopus laevis with 12 samples.

Results

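The genes described here are the fibroblast growth factors (FGFs) and their receptors, the dual-specificity phosphatases and sprouty proteins, the ephrins and Eph receptors, and the PDGF, IGF and VEGF signals with the receptor ret, as measured in Xenopus laevis animal caps. They were picked out by a rule on their names, and earlier results of these data were known when the genes were chosen. The rule takes all genes whose symbol on the array, with the ending .L or .S of the homeolog removed, begins with fgf, spry, spred, dusp, efna, efnb, epha, ephb, pdgf, igf, vegf, kdr, flt, egfr or erbb or equals ret. This gave 44 of the 6505 gene names on the array, read by 62 of 15503 probe sets. They comprised 7 FGF ligands, 4 FGF receptors, 3 feedback inhibitors, 5 other dual-specificity phosphatases, 6 ephrins, 5 Eph receptors, 3 PDGF, 5 IGF and 3 VEGF genes, and ret. A further 2 genes matched by name without being placed in any of these roles (igf2bp3, an RNA-binding protein, and fgfr1op2). No gene named spred, kdr, egfr or erbb was among them, and 4 further probe sets annotated to several symbols were not used.

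Animal caps, the pluripotent ectoderm of the blastula, were cut at stage 9 and cultured in 4 groups of 3 arrays each. Caps labelled lhx1-AS/AcRA came from embryos that had received 800 pg of lhx1-AS (a chemically modified antisense oligonucleotide against lhx1 RNA) and were treated with 10 ng/ml activin and 0.0001 M retinoic acid (AcRA), which drives caps towards kidney fates. AcRA caps received the same treatment without the injection, lhx1-AS caps the injection without the treatment, and C caps neither. Experiments I, II and III each gave 1 array to every group, and each RNA came from 12 pooled caps. According to the sample labels the culture ended when sibling embryos reached stage 12.5, whereas the methods place the harvest later. Since no caps were injected with a control oligonucleotide, what the injection does by way of lhx1 and what it does otherwise cannot be told apart.

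Most of these proteins belong to receptor tyrosine kinase pathways, in which a ligand outside the cell brings receptors together and the kinase inside passes the signal to the RAS-MAPK cascade. FGF signalling is required in Xenopus for mesoderm to form and to be maintained, and its targets include its own inhibitors, such as the phosphatase dusp6 and the sprouty proteins. Ephrins and Eph receptors both sit in cell membranes and keep groups of cells apart, among them ectoderm from mesoderm in the gastrula. PDGF-A from the ectoderm guides the migration of mesoderm that carries its receptor pdgfra. IGF signalling is known in Xenopus for promoting anterior neural fates.

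Each probe set gave 1 signal per array on a linear scale, scaled by the authors so that the trimmed mean of an array was 500.1. Array medians were 107 to 121 on the lhx1-AS/AcRA-labelled arrays, 129 to 138 in AcRA caps, 106 to 123 in lhx1-AS caps and 124 to 149 in C caps. The targeted gene lhx1 gave 1144, 991 and 1614 on the lhx1-AS/AcRA-labelled arrays (experiments I to III, the order kept throughout) and 316, 823 and 779 in AcRA caps. In lhx1-AS caps it gave 1.55, 42.6 and 3.20, and in C caps 19.8, 2.19 and 2.60. With a difference of 1.06 ± 1.05 on the log2 scale (SE, limma adjusted p = 0.62), lhx1 RNA was not lower on the lhx1-AS/AcRA-labelled arrays than in AcRA caps. The labels state the oligonucleotide and the treatment, not the level of lhx1 RNA, and these arrays are named here by their label. Marker genes of other tissues differed with the treatment and, mainly among AcRA-treated caps, with the injection. The summed signal of 15 measured epidermis markers of 21 listed was 6212 to 28701 on the lhx1-AS/AcRA-labelled arrays, 51779.9 to 67089 in AcRA caps, 79535 to 82663 in lhx1-AS caps and 81748 to 93596 in C caps. For 15 of 18 early and paraxial mesoderm markers the sum was 11776 to 16739 on the lhx1-AS/AcRA-labelled arrays, 6251 to 11249 in AcRA caps, 318 to 654 in lhx1-AS caps and 136 to 470.4 in C caps. Between the treated groups the sum was led by vegt and eomes, with means of 7182 and 5155 on the lhx1-AS/AcRA-labelled arrays and 1469 and 468 in AcRA caps. The median log2 fold change of the mesoderm list was -1.26 there, against the direction of the sum. For 13 of 17 organizer markers the sum was 12856 to 26012 on the lhx1-AS/AcRA-labelled arrays, 1210.1 to 2597 in AcRA caps, 1027 to 1322 in lhx1-AS caps and 302 to 697 in C caps. For 9 of 15 endoderm markers it was 20451 to 26837 on the lhx1-AS/AcRA-labelled arrays, 8595 to 11646 in AcRA caps, 4304 to 5719 in lhx1-AS caps and 3247 to 4436 in C caps. For 9 of 14 muscle markers it was 733 to 1062 on the lhx1-AS/AcRA-labelled arrays, 1813 to 3171 in AcRA caps, 2373 to 2792 in lhx1-AS caps and 4349 to 5687 in C caps. Most of this sum in C caps was 1 gene, ckm, at 3997.5, 3661 and 4965. The median log2 fold change of the muscle list was 0.72 in AcRA over C caps, against the direction of the sum. On the lhx1-AS/AcRA-labelled arrays over AcRA caps the muscle median was -1.01. For 8 of 16 kidney markers, ret and lhx1 among them, the sum was 2719 to 4309 on the lhx1-AS/AcRA-labelled arrays, 2083 to 2243 in AcRA caps, 1433 to 1924 in lhx1-AS caps and 1948 to 2147 in C caps. Between the treated groups it was led by lhx1, which is counted among the organizer markers too, and osr1. Their means were 1249 and 832 on the lhx1-AS/AcRA-labelled arrays and 639 and 109 in AcRA caps. The median log2 fold change of the kidney list was 0.18 there. For 16 of 18 neural markers the sum was 9437 to 11855 on the lhx1-AS/AcRA-labelled arrays, 5786 to 10186 in AcRA caps, 3590.3 to 5156 in lhx1-AS caps and 4717 to 8689 in C caps. Between the treated groups zic2 had means of 3508 on the lhx1-AS/AcRA-labelled arrays and 459 in AcRA caps. The median log2 fold change of the neural list was -0.22 there, against the direction of the sum. For 12 of 16 blood and endothelium markers, flt1 among them, the sum was 2564 to 3874 on the lhx1-AS/AcRA-labelled arrays, 2144 to 2474 in AcRA caps, 1866 to 2235 in lhx1-AS caps and 2206 to 2724 in C caps. Between the treated groups this sum was led by aplnr, with means of 2323 on the lhx1-AS/AcRA-labelled arrays and 536 in AcRA caps. The median log2 fold change of the blood and endothelium list was -0.23 there, against the direction of the sum. In AcRA over C caps 2 of the 15 epidermis markers were lower, 8 of the 15 mesoderm and 3 of the 9 endoderm markers were higher, and of the 13 organizer markers 3 were higher and 1 lower. In the same comparison 3 neural, 2 blood and endothelium and 1 kidney markers (lhx1) were higher and 1 muscle and 1 blood and endothelium marker lower. These counts stand beside 3.61% of all gene names higher and 3.12% lower, and a single call in a list was not read as a change of the tissue. On the lhx1-AS/AcRA-labelled arrays over AcRA caps 6 epidermis markers were lower and 1 higher, and 1 mesoderm marker was lower and 1 higher. There 7 organizer and 4 endoderm markers were higher, as were 2 neural, 1 kidney and 1 blood and endothelium markers. Lower were 2 neural, 2 muscle and 1 blood and endothelium markers, beside 3.15% of all gene names higher and 6.96% lower. Over lhx1-AS caps, 12 epidermis, 2 muscle, 1 kidney and 1 blood and endothelium markers were lower on the lhx1-AS/AcRA-labelled arrays (4.57% of all gene names). Higher there were 5 mesoderm, 7 organizer, 4 endoderm, 2 neural, 2 kidney and 1 blood and endothelium markers (4.47%). In lhx1-AS over C caps no list had more than 1 marker called in a direction, beside 3.23% of all gene names higher and 4.64% lower. No marker of these lists stood at the lowest signal of 1 on every array of a group. The part of these tissues in the results below was not tested, and in such mixed RNA fewer cells of a type and less RNA per cell cannot be told apart.

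For each gene the brightest probe set, by mean log2 signal over the arrays, was taken, and a gene was called higher or lower when limma, fitted across all 15503 probe sets, gave an adjusted p under 0.05. Differences are log2 fold changes, with limma's standard error (SE) after the ± sign. Of the 44 genes, 27 had a group mean signal of 100 or more in at least 1 group and 17 stayed below it in all, where the log2 scale spreads small differences of signal. In all, 15 genes were called in at least 1 comparison, 14 of them among the 27 brighter ones. The share of all gene names called in at least 1 comparison was not counted, so these totals and the counts by role below are not set against the array. Shares for each comparison are given below.

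The AcRA treatment raised a small set of receptors and ligands of these pathways, most clearly the PDGF receptor pdgfra, the FGF receptors fgfr1 and fgfr4 and the ligand fgf8. In AcRA over C caps 7 of 44 genes were higher and 2 lower (15.9% and 4.55%), beside 3.61% and 3.12% of all gene names. On the lhx1-AS/AcRA-labelled arrays over lhx1-AS caps 9 were higher and 1 lower (20.5% and 2.27%), beside 4.47% and 4.57% of all gene names. The median log2 fold change was 0.40 over the 44 genes and 0.01 over all gene names in AcRA over C caps, and 0.37 and -0.0019 in the injected pair, as the lhx1-AS/AcRA-labelled arrays and the lhx1-AS caps are called here. These 2 comparisons share no array, and 6 genes were higher in both, namely pdgfra, fgfr1, fgfr4, fgf8, igf2 and dusp6, as were 147 of the 6505 gene names (2.26%). The median over the 44 genes was also 0.38 in each comparison of injected with uninjected caps, so an upward median was not particular to AcRA. The signals of all 15 called genes are plotted by array, and the changes of all 44 by role.

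**Figure D1:**
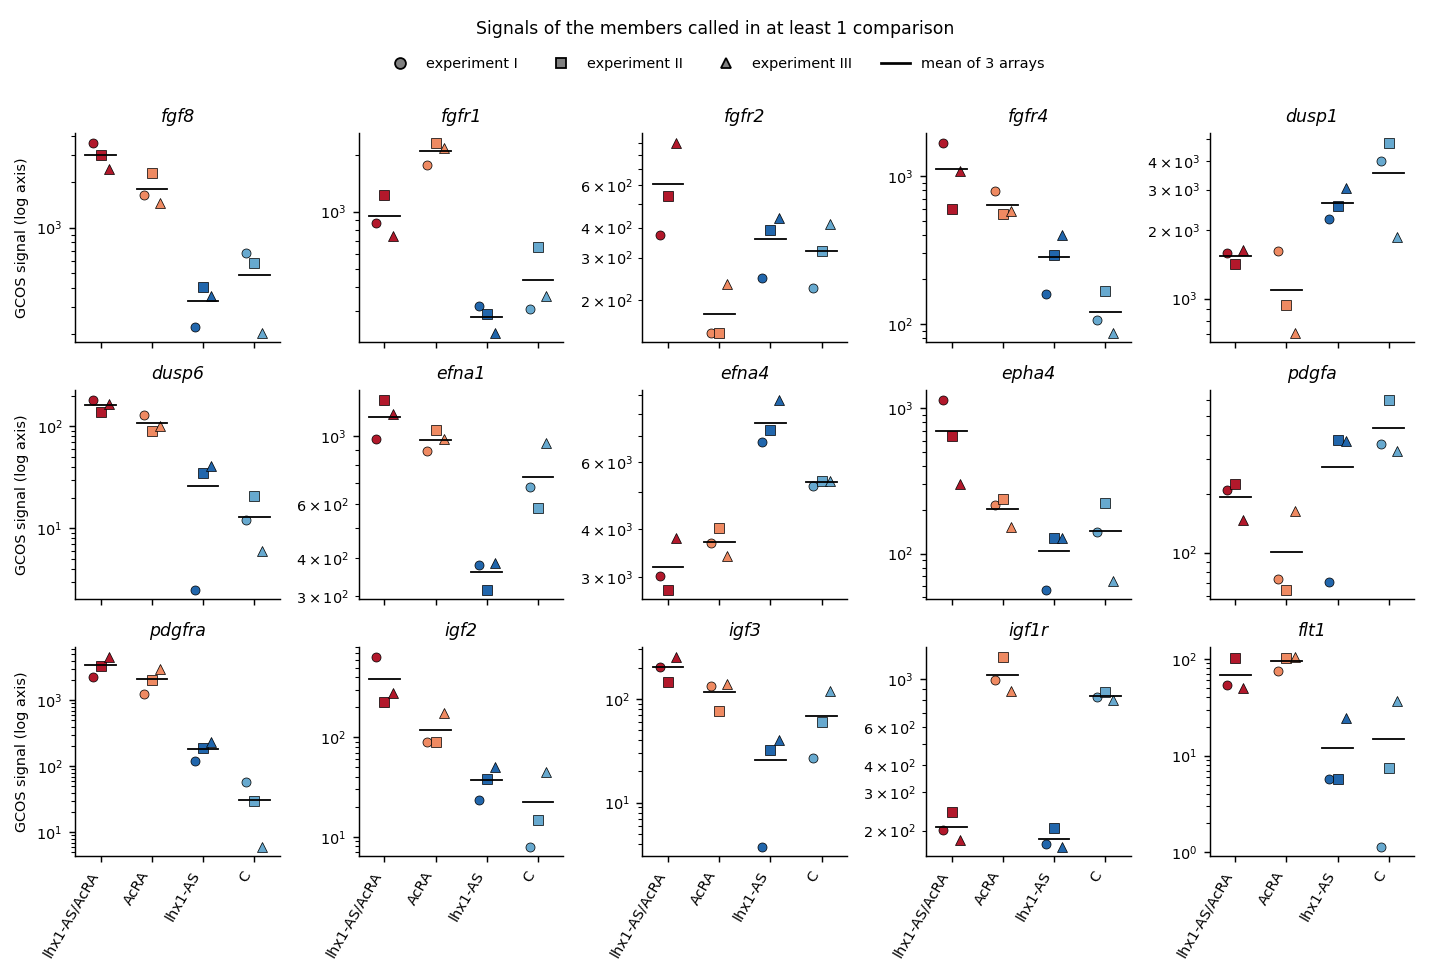
Signal on each array (log axis; symbols mark the experiment, bars the mean of 3 arrays) of the 15 genes called in at least 1 comparison, for the lhx1-AS/AcRA-labelled arrays and the AcRA, lhx1-AS and C caps. The genes fgf8, fgfr1, fgfr4, dusp6, pdgfra and igf2 stand higher in both AcRA-treated groups than in both untreated ones, and igf1r stands lower in both injected groups.

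**Figure D2:**
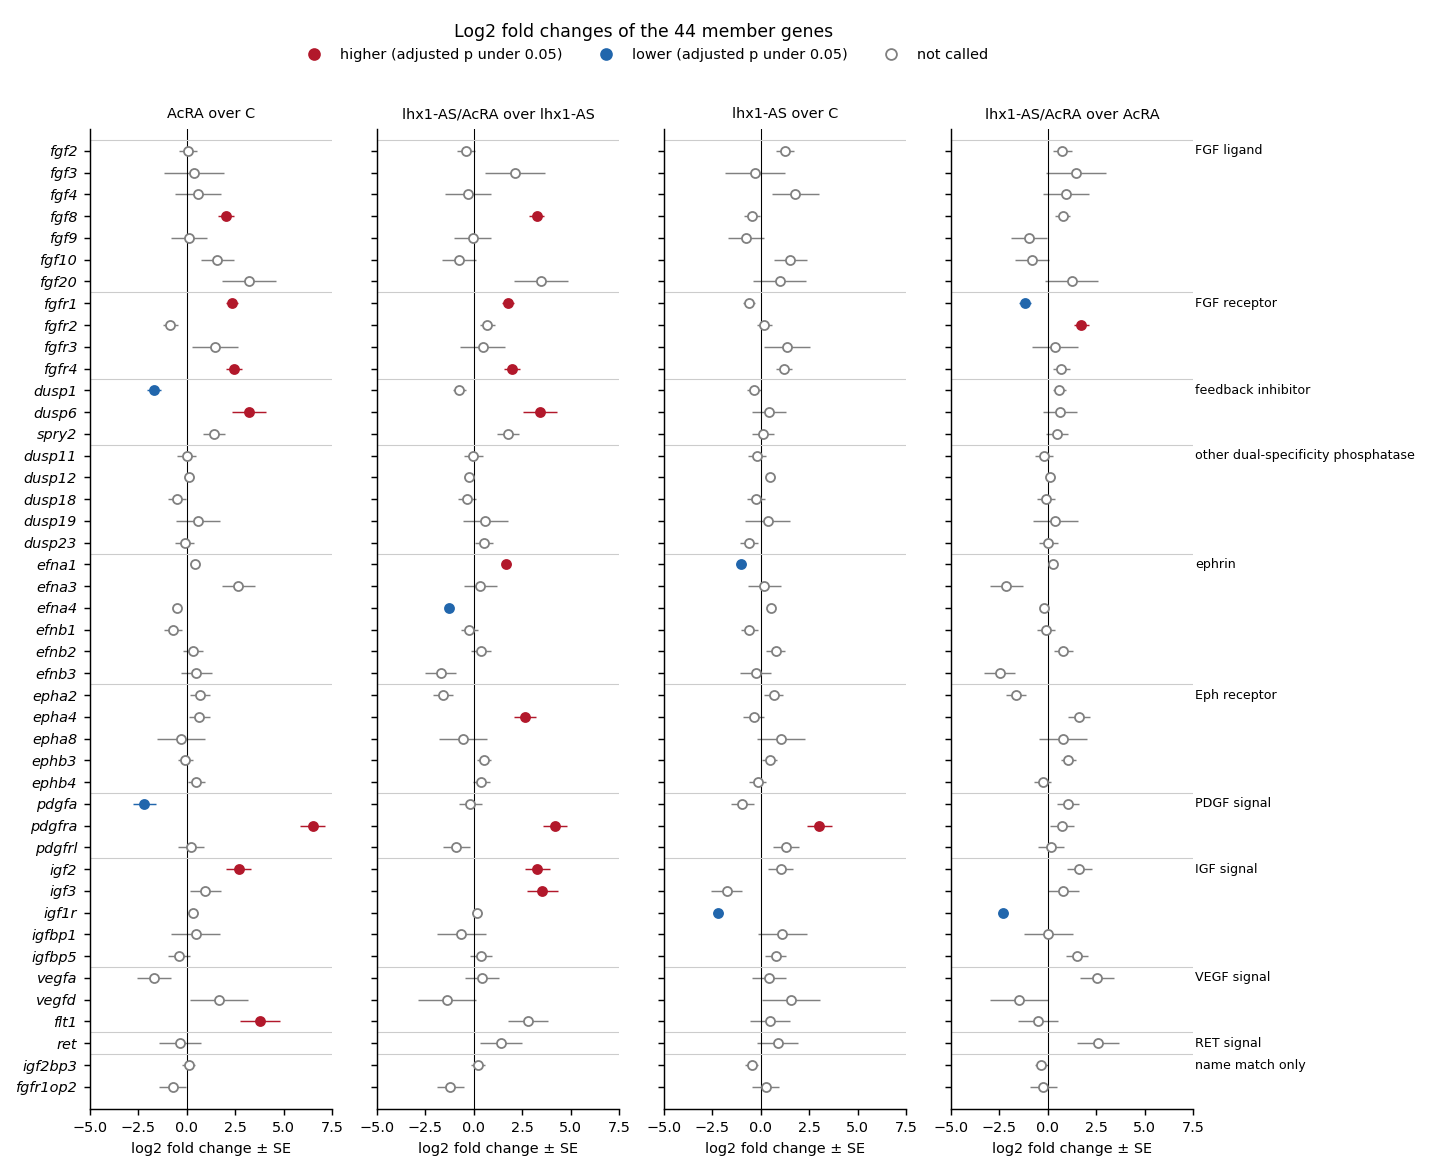
Log2 fold change with standard error (x axis) of the 44 genes, ordered by role, in AcRA over C, in lhx1-AS/AcRA (by label) over lhx1-AS, in lhx1-AS over C and in lhx1-AS/AcRA (by label) over AcRA. Filled red and blue points are higher and lower at a limma adjusted p under 0.05; 9, 10, 3 and 3 genes are filled in the 4 panels.

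Among the 7 FGF ligands only fgf8, a ligand of gastrula mesoderm and of the neural border, was called. Its signal was 3640.2, 3026 and 2434 on the lhx1-AS/AcRA-labelled arrays, 1636, 2309 and 1461 in AcRA caps, 222, 406 and 353 in lhx1-AS caps and 678, 589 and 203 in C caps. Every AcRA-treated array lay above every untreated one. The log2 fold change was 2.03 ± 0.40 (limma adjusted p = 0.00613) in AcRA over C caps and 3.24 ± 0.40 (limma adjusted p = 9.19e-05) on the lhx1-AS/AcRA-labelled arrays over lhx1-AS caps. Of its dimmer probe sets, 1 was also called in the injected pair (3.37, limma adjusted p = 0.0321), and the others did not pass, with 2.39 and 1.57 in AcRA over C caps and 1.41 in the injected pair. The ligand fgf20 gave 219, 279.9 and 74.9 on the lhx1-AS/AcRA-labelled arrays, 25.7, 139 and 100.1 in AcRA caps, 0.843, 69.6 and 47.9 in lhx1-AS caps and 7.61, 2.04 and 28.3 in C caps. Its arrays scattered widely, with the AcRA array of experiment I among the untreated ones, and neither the 3.22 of AcRA over C caps (limma adjusted p = 0.259) nor the 3.48 of the injected pair (limma adjusted p = 0.181) passed.

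The ligand fgf2, whose RNA is stored in the Xenopus egg, did not follow AcRA, with a log2 fold change of 0.09 ± 0.47 (limma adjusted p = 0.986) in AcRA over C caps. It gave 991, 294 and 206 in lhx1-AS caps against 156, 168 and 170.1 in C caps, so that all 3 injected arrays were higher but experiment I far above the others. The difference of 1.25 missed the threshold (limma adjusted p = 0.124) and passed it with the experiment as a block (limma adjusted p = 0.0412). The ligand fgf10 gave 5.20 to 35.3 on the lhx1-AS/AcRA-labelled arrays, 16.3 to 44.0 in AcRA caps, 16.7 to 30.4 in lhx1-AS caps and 3.71 to 13.4 in C caps, with no call. No call was made for fgf3, fgf4 and fgf9 either, which stayed below a signal of 60 on every array.

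Of the 4 FGF receptors, which bind FGFs and carry the kinase, fgfr1, fgfr4 and fgfr2 were called in 1 or more comparisons, each in a pattern of its own. The signal of fgfr1, the main FGF receptor of Xenopus gastrula mesoderm, was 871, 1217 and 743 on the lhx1-AS/AcRA-labelled arrays, 1773, 2316 and 2156 in AcRA caps, 317, 288 and 229.5 in lhx1-AS caps and 307, 650.3 and 357 in C caps. The 3 AcRA arrays were highest, the lhx1-AS/AcRA-labelled arrays came next without overlap, and the untreated groups overlapped below them. It rose with AcRA, by 2.32 ± 0.31 (limma adjusted p = 0.000293) in AcRA over C caps and by 1.74 ± 0.31 (limma adjusted p = 0.00168) in the injected pair. It was lower on the lhx1-AS/AcRA-labelled arrays than in AcRA caps, with a log2 fold change of -1.16 ± 0.31 (limma adjusted p = 0.027). That last call was lost without any 1 AcRA array or without the lhx1-AS/AcRA-labelled array of experiment I or III (limma adjusted p = 0.0529 to 0.113), and when arrays were scaled to 1 median (log2 fold change -0.92, limma adjusted p = 0.104).

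The receptor fgfr4 gave 1678, 597 and 1087 on the lhx1-AS/AcRA-labelled arrays, 785, 551 and 584 in AcRA caps, 159, 291 and 400.4 in lhx1-AS caps and 107, 168 and 87.5 in C caps. On this probe set, the brightest, treated and untreated groups did not overlap, whether or not injected. The dimmer probe sets separated the groups within each pair, but their AcRA and lhx1-AS caps overlapped. These gave 173 to 197 and 139 to 237 for fgfr4.S, and 175 to 250 and 35.5 to 238 for the dimmer fgfr4.L probe set. On the brightest, the changes were as follows. The log2 fold change was 2.44 ± 0.42 (limma adjusted p = 0.00221) in AcRA over C caps and 1.96 ± 0.42 (limma adjusted p = 0.00782) in the injected pair. In lhx1-AS over C caps the brightest probe set, of fgfr4.L, did not pass (1.19, limma adjusted p = 0.109), while the probe set of the homeolog fgfr4.S did (1.24, limma adjusted p = 0.0471). That probe set in turn missed the threshold in AcRA over C caps (1.22, limma adjusted p = 0.0597) and passed it with the experiment as a block (limma adjusted p = 0.0232).

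The pattern of fgfr2 was unlike these. It gave 374, 542 and 902 on the lhx1-AS/AcRA-labelled arrays, 146, 146 and 233 in AcRA caps, 247, 391 and 438 in lhx1-AS caps and 224, 319 and 414 in C caps, so that AcRA caps held the lowest signal of the 4 groups in each experiment. It was higher on the lhx1-AS/AcRA-labelled arrays than in AcRA caps, by 1.73 ± 0.38 (limma adjusted p = 0.0106), a call lost without the lhx1-AS/AcRA-labelled array of experiment III (log2 fold change 1.40, limma adjusted p = 0.0588). Between AcRA and C caps the log2 fold change was -0.85 ± 0.38 (limma adjusted p = 0.296), and with the experiment as a block this passed (limma adjusted p = 0.0279). The AcRA response of injected caps minus that of uninjected caps was 1.56 (95% interval 0.39 to 2.72, limma adjusted p = 0.396), positive in 3 of 3 experiments, and this too passed only with the block (limma adjusted p = 0.0282). A second fgfr2 probe set gave 1.33 between the lhx1-AS/AcRA-labelled arrays and AcRA caps (limma adjusted p = 0.0873, with the block 0.021) and 1.17 for the difference of responses (limma adjusted p = 0.869, with the block 0.418). The receptor fgfr3, at 16.5 to 85.0 on the lhx1-AS/AcRA-labelled arrays, 16.1 to 53.7 in AcRA caps, 4.83 to 78.0 in lhx1-AS caps and 2.10 to 26.0 in C caps, was not called.

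The inhibitors that act inside the cell split by gene, with dusp6 higher and dusp1 lower after AcRA. The signal of dusp6, a phosphatase of ERK that FGF signalling induces, was 184, 139 and 167 on the lhx1-AS/AcRA-labelled arrays, 130.1, 89.3 and 101 in AcRA caps, 2.50, 35.2 and 40.5 in lhx1-AS caps and 11.9, 20.6 and 6.06 in C caps. All treated arrays were above all untreated ones, and the lhx1-AS array of experiment I was far below its group. The rise was 3.21 ± 0.88 (limma adjusted p = 0.0469) in AcRA over C caps and 3.41 ± 0.88 (limma adjusted p = 0.0256) in the injected pair. The call of AcRA over C caps was lost without any 1 array of the AcRA, C or labelled lhx1-AS/AcRA groups (log2 fold change 2.75 to 3.63, limma adjusted p = 0.0536 to 0.178), and that of the injected pair without any 1 lhx1-AS/AcRA-labelled array (limma adjusted p = 0.0632 to 0.0819). With 64 added to all signals both stayed called, at smaller log2 fold changes of 1.15 in AcRA over C caps and 1.36 in the injected pair.

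The phosphatase dusp1, an immediate early gene that inactivates MAP kinases, fell with AcRA. Its signal was 1586, 1419.6 and 1627 on the lhx1-AS/AcRA-labelled arrays, 1616, 935 and 709 in AcRA caps, 2234, 2553 and 3038 in lhx1-AS caps and 3988, 4820.0 and 1853 in C caps. On this probe set, of dusp1.L, treated arrays were below untreated ones throughout, and the log2 fold change in AcRA over C caps was -1.68 ± 0.34 (limma adjusted p = 0.00792). In the injected pair it was -0.75 ± 0.34 (limma adjusted p = 0.277). The difference between these responses was 0.94 (95% interval -0.11 to 1.98, limma adjusted p = 0.838). A dimmer probe set, of dusp1.S, gave 22.5 to 38.9 in AcRA caps and 50.3 to 85.7 in C caps. It did not separate the injected pair, with 45.2 to 53.4 on the lhx1-AS/AcRA-labelled arrays and 30.7 to 109 in lhx1-AS caps.

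Sprouty 2, an inhibitor of receptor kinase signalling, was read by probe sets of both homeologs. The spry2.S probe set, read as the brightest, gave 137, 119.8 and 81.8 on the lhx1-AS/AcRA-labelled arrays, 78.1, 57.5 and 112 in AcRA caps, 22.7, 25.7 and 57.9 in lhx1-AS caps and 22.9, 20.2 and 56.6 in C caps, with treated arrays above untreated ones in both pairs. Its 1.77 in the injected pair missed the threshold (limma adjusted p = 0.0801) and passed with the block (limma adjusted p = 0.0331). The spry2.L probe set, at 58.2, 71.1 and 95.4 on the lhx1-AS/AcRA-labelled arrays and 2.19, 5.93 and 2.77 in lhx1-AS caps, was called there (4.47, limma adjusted p = 0.00298). Neither passed in AcRA over C caps, with 1.42 and 2.16 (limma adjusted p = 0.215 and 0.202).

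Of the 6 ephrins, the membrane-bound ligands of Eph receptors, efna1 and efna4 were called, in opposite directions. The signal of efna1 was 973, 1312 and 1179.7 on the lhx1-AS/AcRA-labelled arrays, 889, 1042 and 974 in AcRA caps, 378, 315 and 384 in lhx1-AS caps and 679, 583 and 944 in C caps. The lhx1-AS caps stood apart below all other arrays. In lhx1-AS over C caps it was lower, with a log2 fold change of -1.01 ± 0.25 (limma adjusted p = 0.024). In the injected pair it was higher with AcRA, by 1.68 ± 0.25 (limma adjusted p = 0.000395), whereas AcRA over C caps gave 0.42 ± 0.25 (limma adjusted p = 0.492). The first of these calls was lost without the lhx1-AS array of experiment II or III or the C array of experiment I or III (log2 fold change -1.06 to -0.82, limma adjusted p = 0.0591 to 0.11), after quantile normalization (-0.87, limma adjusted p = 0.0514) and after scaling to 1 median (-0.77, limma adjusted p = 0.0633). The difference of the AcRA responses was 1.26 (95% interval 0.51 to 2.00, limma adjusted p = 0.174).

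The signal of efna4 was 3013, 2774 and 3779.8 on the lhx1-AS/AcRA-labelled arrays, 3674, 4017 and 3398 in AcRA caps, 6765, 7266 and 8735 in lhx1-AS caps and 5199, 5343 and 5349 in C caps. Arrays of a group lay close together, and all treated arrays were below all untreated ones. In the injected pair it fell by 1.25 on the log2 scale with AcRA (standard error 0.18, limma adjusted p = 0.000351), and AcRA over C caps gave -0.52 ± 0.18 (limma adjusted p = 0.136). In lhx1-AS over C caps all 3 injected arrays were higher, with a log2 fold change of 0.51 (limma adjusted p = 0.109). It passed with the block (limma adjusted p = 0.0399), with arrays scaled to 1 median (0.75, limma adjusted p = 0.0254) and in the methods' t-test without adjustment. The difference of the AcRA responses was -0.73 (95% interval -1.28 to -0.18, limma adjusted p = 0.4).

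The ephrin efna3, an A-type ligand whose group means stayed under 100, gave 47.9, 16.2 and 11.7 on the lhx1-AS/AcRA-labelled arrays, 94.5, 94.4 and 87.2 in AcRA caps, 33.0, 6.32 and 21.5 in lhx1-AS caps and 20.5, 32.0 and 4.71 in C caps. The 3 AcRA arrays were above all others. Its log2 fold change in AcRA over C caps was 2.66 (limma adjusted p = 0.1, with the block 0.0483), and between the lhx1-AS/AcRA-labelled arrays and AcRA caps -2.14 (limma adjusted p = 0.149, with the block 0.0775). The B-type ephrin efnb3, named here after its values were seen, was at 3.51 to 19.0 on the lhx1-AS/AcRA-labelled arrays and 36.3 to 57.8 in AcRA caps, or -2.47 on the log2 scale (limma adjusted p = 0.0668, with the block 0.0188). No comparison called efnb1, at 106 to 148 on the lhx1-AS/AcRA-labelled arrays, 123 to 141 in AcRA caps, 80.9 to 218 in lhx1-AS caps and 141 to 384 in C caps. Nor did any call efnb2, at 55.6 to 74.5 on the lhx1-AS/AcRA-labelled arrays, 26.1 to 47.7 in AcRA caps, 37.2 to 59.0 in lhx1-AS caps and 22.1 to 39.9 in C caps.

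Of the 5 Eph receptors only epha4, a receptor for both ephrin classes, was called. Its signal was 1150.3, 644 and 304 on the lhx1-AS/AcRA-labelled arrays, 218, 239 and 153 in AcRA caps, 56.4, 128 and 128 in lhx1-AS caps and 140.2, 224 and 64.8 in C caps. The lhx1-AS/AcRA-labelled arrays were above all others, though spread over a wide range. In the injected pair it rose with AcRA by 2.64 ± 0.54 (limma adjusted p = 0.00546), and the second probe set was called too (1.97, limma adjusted p = 0.0209), while AcRA over C caps gave 0.66 ± 0.54 (limma adjusted p = 0.722). Against AcRA caps the lhx1-AS/AcRA-labelled arrays were higher by 1.61 and 1.61 in the pair of probe sets, which missed the threshold (limma adjusted p = 0.0816 and 0.0543) and passed with the block (limma adjusted p = 0.0273 and 0.0279).

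The receptor epha2, which prefers A-type ephrins, gave 70.5, 162 and 102 on the lhx1-AS/AcRA-labelled arrays, 396, 262 and 329.9 in AcRA caps, 289, 139.9 and 769.6 in lhx1-AS caps and 245, 182 and 179 in C caps. The lhx1-AS/AcRA-labelled arrays were below the other groups except for 1 overlapping lhx1-AS array. The log2 fold change was -1.62 against AcRA caps (limma adjusted p = 0.0631, with the block 0.0326) and -1.58 against lhx1-AS caps (limma adjusted p = 0.0841, with the block 0.0484). The probe set of ephb3.L, read as the brightest of this B-type receptor, was not called, at 632 to 770.0 on the lhx1-AS/AcRA-labelled arrays, 213 to 512 in AcRA caps, 375 to 615 in lhx1-AS caps and 213 to 476 in C caps. The probe set of the homeolog ephb3.S was called in the injected pair, by 1.79 (limma adjusted p = 0.00698), with 306, 243 and 339 on the lhx1-AS/AcRA-labelled arrays and 78.2, 58.4 and 135 in lhx1-AS caps. Neither ephb4, at 134 to 269 on the lhx1-AS/AcRA-labelled arrays, 111 to 368 in AcRA caps, 124 to 153 in lhx1-AS caps and 128 to 187 in C caps, nor epha8, below 43 on every array, was called.

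The PDGF receptor was higher and its ligand lower in AcRA than in C caps. The receptor pdgfra, carried by migrating mesoderm, gave 2225, 3296 and 4615 on the lhx1-AS/AcRA-labelled arrays, 1268, 2018 and 2957 in AcRA caps, 122, 191 and 238 in lhx1-AS caps and 57.9, 29.5 and 6.04 in C caps. Its groups formed 3 levels, the 2 treated groups on top, lhx1-AS caps between them and C caps, with no overlap between levels. The log2 fold change was 6.49 ± 0.63 (limma adjusted p = 3.26e-05) in AcRA over C caps, 4.19 ± 0.63 (limma adjusted p = 0.0005) in the injected pair and 3.02 ± 0.63 (limma adjusted p = 0.0121) in lhx1-AS over C caps. The last was lost without the lhx1-AS array of experiment III (2.81, limma adjusted p = 0.0528) and when only these 2 groups were fitted (limma adjusted p = 0.0507). Signals in C caps were low, and with 64 added to all signals the change was 4.45 in AcRA over C caps and 1.39 in lhx1-AS over C caps, both still called. The second probe set was called in AcRA over C caps (4.58, limma adjusted p = 0.00127) and lhx1-AS over C caps (2.99, limma adjusted p = 0.0249) and missed the threshold in the injected pair (2.47, limma adjusted p = 0.054, with the block 0.0186). The difference of the AcRA responses was -2.30 (95% interval -4.22 to -0.39) and did not pass (limma adjusted p = 0.563).

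The ligand pdgfa, made by ectoderm, gave 209, 225 and 146 on the lhx1-AS/AcRA-labelled arrays, 73.6, 64.6 and 163 in AcRA caps, 70.5, 375 and 373 in lhx1-AS caps and 361, 607 and 331 in C caps. AcRA caps were below C caps without overlap, and the lhx1-AS array of experiment I was far below its group. In AcRA over C caps the log2 fold change was -2.18 ± 0.58 (limma adjusted p = 0.0403), and the second probe set gave -3.69 (limma adjusted p = 0.00318). The call of the brighter one was lost without any 1 C array, the AcRA array of experiment I or II, or the lhx1-AS/AcRA-labelled array of experiment I or II (limma adjusted p = 0.0504 to 0.16). In the injected pair the 2 probe sets gave -0.17 and -1.92 (limma adjusted p = 0.931 and 0.112). The receptor-like pdgfrl, which has no kinase, was at 44.9 to 78.2 on the lhx1-AS/AcRA-labelled arrays, 30.2 to 72.6 in AcRA caps, 52.6 to 178 in lhx1-AS caps and 24.1 to 114 in C caps and was not called.

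Of the 5 IGF genes, the receptor igf1r moved with the injection and the ligand igf2 with AcRA, while igf3 was called with AcRA only in the injected pair. The signal of igf1r was 201, 244 and 182 on the lhx1-AS/AcRA-labelled arrays, 994, 1269.6 and 877 in AcRA caps, 174, 207 and 169 in lhx1-AS caps and 823, 874 and 799 in C caps. All 6 injected arrays were below all 6 uninjected ones, whether or not AcRA was added. The log2 fold change was -2.19 ± 0.26 (limma adjusted p = 0.000452) in lhx1-AS over C caps and -2.32 ± 0.26 (limma adjusted p = 9.58e-05) on the lhx1-AS/AcRA-labelled arrays over AcRA caps, against 0.31 ± 0.26 (limma adjusted p = 0.715) in AcRA over C caps and 0.18 ± 0.26 (limma adjusted p = 0.821) in the injected pair. The difference of the AcRA responses was -0.13 (95% interval -0.91 to 0.64).

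This brightest igf1r probe set carries the x mark of the array's maker for probes that may also bind other sequences. A second one without the mark gave 122, 127 and 161 on the lhx1-AS/AcRA-labelled arrays, 523, 423 and 503 in AcRA caps, 190.1, 199 and 138 in lhx1-AS caps and 389.9, 384 and 459 in C caps. It separated the injected from the uninjected arrays likewise, with log2 fold changes of -1.24 in lhx1-AS over C caps and -1.83 against AcRA caps (limma adjusted p = 0.02 and 0.00111). The third and dimmest was lower in the second of these comparisons (-3.41, limma adjusted p = 0.0496) and gave -1.80 in lhx1-AS over C caps (limma adjusted p = 0.332). All of them are annotated to the homeolog igf1r.S.

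The growth factor igf2 gave 646, 226 and 279 on the lhx1-AS/AcRA-labelled arrays, 88.9, 88.8 and 174 in AcRA caps, 23.4, 37.9 and 49.9 in lhx1-AS caps and 7.94, 14.6 and 45.0 in C caps. Each AcRA-treated group was above its untreated one without overlap. The log2 fold change was 2.68 ± 0.65 (limma adjusted p = 0.0224) in AcRA over C caps and 3.28 ± 0.65 (limma adjusted p = 0.00405) in the injected pair. The first was lost without the AcRA array of experiment II or III or the C array of experiment I or II (2.11 to 2.84, limma adjusted p = 0.0534 to 0.116), and with 64 added to all signals (1.06, limma adjusted p = 0.0575), where the second stayed called at 2.04. The related igf3 gave 201, 146 and 256 on the lhx1-AS/AcRA-labelled arrays, 133, 76.5 and 139 in AcRA caps, 3.76, 32.2 and 40.5 in lhx1-AS caps and 26.7, 60.4 and 120.3 in C caps. It was called in the injected pair, by 3.53 ± 0.80 (limma adjusted p = 0.0109), where the lhx1-AS array of experiment I was far below the others, and gave 0.96 ± 0.80 (limma adjusted p = 0.725) in AcRA over C caps. With 64 added to all signals the call of the injected pair was kept, at 1.57. The binding proteins igfbp5, at 79.5 to 118 on the lhx1-AS/AcRA-labelled arrays, 28.1 to 38.2 in AcRA caps, 29.2 to 137 in lhx1-AS caps and 37.6 to 48.5 in C caps, and igfbp1, below 41 on every array, were not called.

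The VEGF receptor flt1 was the 1 called gene whose group means all stayed below 100. It gave 53.6, 101 and 49.7 on the lhx1-AS/AcRA-labelled arrays, 76.0, 101 and 106 in AcRA caps, 5.76, 5.72 and 24.6 in lhx1-AS caps and 1.14, 7.47 and 36.5 in C caps. Both treated groups were above both untreated ones. In AcRA over C caps the log2 fold change was 3.79 ± 1.03 (limma adjusted p = 0.0446), and in the injected pair it was 2.79 ± 1.03 (limma adjusted p = 0.138). The call was lost without any 1 AcRA array, any 1 lhx1-AS/AcRA-labelled array or the C array of experiment I or II (2.50 to 3.94, limma adjusted p = 0.0558 to 0.166). It was also lost without the variance trend, with only the compared groups fitted and in the methods' t-test without adjustment. With 64 added to all signals it was kept, at 1.02. The ligand vegfa, at 10.5 to 50.1 on the lhx1-AS/AcRA-labelled arrays, 2.78 to 7.38 in AcRA caps, 7.83 to 35.4 in lhx1-AS caps and 11.7 to 17.4 in C caps, was not called, nor was vegfd, at 3.28 to 42.2 on the lhx1-AS/AcRA-labelled arrays, 9.45 to 118 in AcRA caps, 4.89 to 78.6 in lhx1-AS caps and 1.09 to 41.5 in C caps. The GDNF receptor ret, a gene of the pronephric duct, was near the lowest signals at 16.3 to 21.1 on the lhx1-AS/AcRA-labelled arrays, 1.16 to 13.4 in AcRA caps, 5.03 to 8.54 in lhx1-AS caps and 2.62 to 7.13 in C caps, and its 2.60 on the lhx1-AS/AcRA-labelled arrays over AcRA caps did not pass (limma adjusted p = 0.162).

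None of the 5 other dual-specificity phosphatases (dusp11, dusp12, dusp18, dusp19 and dusp23), which are not known as feedback inhibitors of FGF signalling, was called in any comparison. Their log2 fold changes ran from -0.61 to 0.64 over the 4 comparisons and the difference of responses. Neither igf2bp3 nor fgfr1op2 was called.

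**Figure D3:**
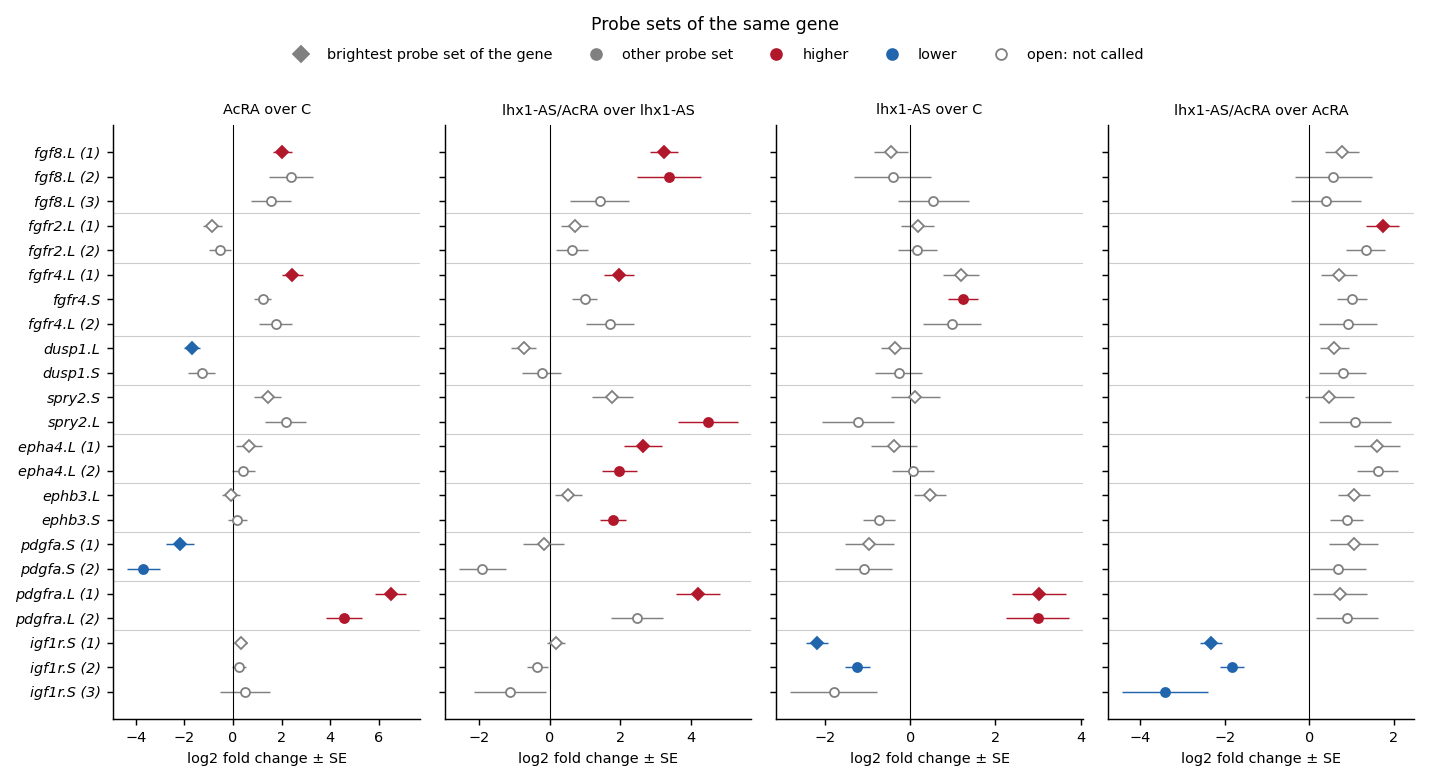
Log2 fold change with standard error (x axis, 1 scale per panel) of all 23 probe sets of the 10 genes that have more than 1 probe set and at least 1 call, for AcRA over C, lhx1-AS/AcRA (by label) over lhx1-AS, lhx1-AS over C and lhx1-AS/AcRA (by label) over AcRA. Diamonds are the brightest probe set of a gene and circles the others; filled red and blue symbols are called higher and lower, and no 2 probe sets of a gene are called in opposite directions in 1 panel.

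The comparisons of injected with uninjected caps called 3 of these genes each. In lhx1-AS over C caps 1 of 44 was higher (pdgfra) and 2 lower (igf1r and efna1), or 2.27% and 4.55%, beside 3.23% and 4.64% of all gene names. On the lhx1-AS/AcRA-labelled arrays over AcRA caps 1 was higher (fgfr2) and 2 lower (igf1r and fgfr1), again 2.27% and 4.55%, beside 3.15% and 6.96% of all gene names. With the experiment as a block, 5 of 44 were called in the first comparison, beside 19.8% of all gene names, and 6 in the second, beside 20.5%. Only igf1r was called in both, and these comparisons share no array. The median log2 fold change was 0.38 over the 44 genes in each, beside 0.02 over all gene names in lhx1-AS over C caps and 0.03 against AcRA caps. The effects of lhx1-AS without and with AcRA had r = 0.231 (Spearman's rho = 0.186) across the 44 genes and r = 0.484 across all 6505 gene names, with the same sign for 29 of 44 (65.9%) and 72.4%. Across genes such values carry no test, since genes are not independent replicates.

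Whether the AcRA response itself differed between injected and uninjected caps was tested as the difference of the log2 fold changes. None of the 44 genes was called in limma's test, beside 0.169% of all gene names higher and 0.338% lower. At an unadjusted p under 0.05, 5 of the 44 were higher and 3 lower, beside 3.29% and 3.58% of all gene names. Blocking on the experiment gave 1 call, fgfr2, which was higher, beside 0.738% of gene names higher and 0.999% lower. The responses to AcRA with and without the injection had, across the 44 genes, r = 0.647 (Spearman's rho = 0.482), and across all gene names r = 0.601. They had the same sign for 28 of 44 genes (63.6%) and for 66.8% of all gene names. The genes with an unadjusted p under 0.05 were igf3, pdgfa, epha4, fgfr2 and efna1 above the line of equal responses in the plot of responses, with differences of 2.57, 2.01, 1.98, 1.56 and 1.26 (limma adjusted p = 0.688, 0.617, 0.557, 0.396 and 0.174). Below it were pdgfra, epha2 and efna4, with -2.30, -2.28 and -0.73 (limma adjusted p = 0.563, 0.288 and 0.4).

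**Figure D4:**
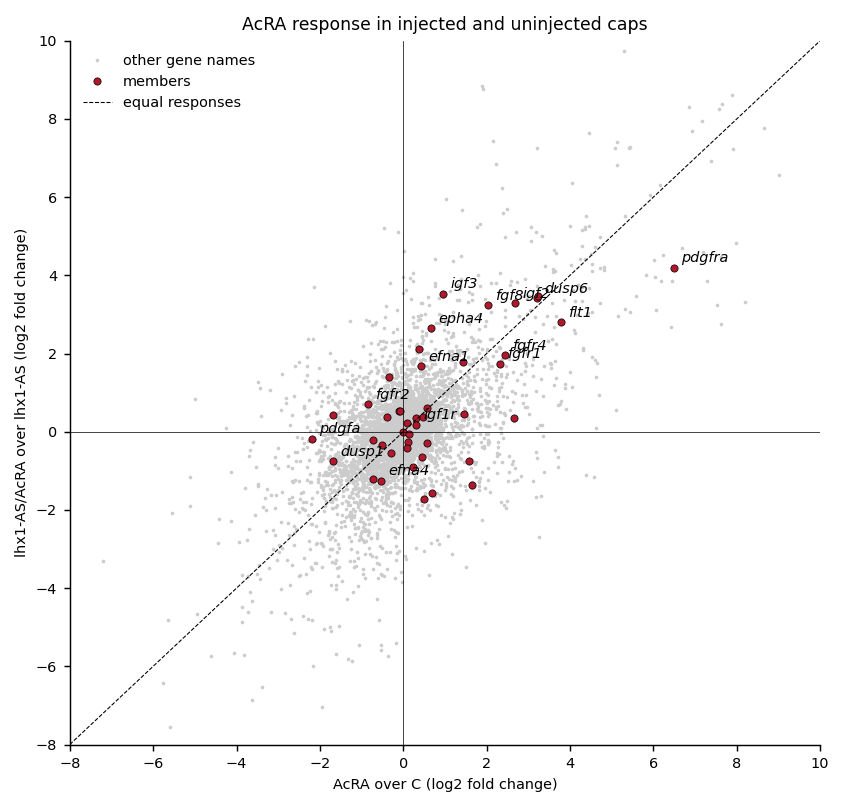
AcRA response in uninjected caps (x axis, log2 fold change of AcRA over C) against that in injected caps (y axis, log2 fold change of lhx1-AS/AcRA, by label, over lhx1-AS) for the 44 genes (red, those called in any comparison named) and the other gene names (grey). The genes pdgfra, dusp6, igf2, fgf8, fgfr1 and fgfr4 lie at positive values on both axes; the dashed line marks equal responses.

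Further genes of the same pathways were counted from lists that hold none of the 44. These counts stand beside 3.61% of all gene names higher and 3.12% lower in AcRA over C caps, 4.47% and 4.57% in the injected pair, 3.15% and 6.96% on the lhx1-AS/AcRA-labelled arrays over AcRA caps, and 3.23% and 4.64% in lhx1-AS over C caps, and 1 gene of a list of 14 to 19 is near such shares. Of 16 measured ETS and immediate early targets, 3 were higher and none lower in AcRA over C caps, namely etv1, etv4 and erf. The signal of etv4, a transcription factor induced by FGF signalling, was 6849, 3567 and 3827 on the lhx1-AS/AcRA-labelled arrays, 5666, 4263 and 5141 in AcRA caps, 776, 1636 and 1343 in lhx1-AS caps and 1429, 1820.1 and 547 in C caps. Treated and untreated groups did not overlap, with 2.15 ± 0.41 (limma adjusted p = 0.00431) in AcRA over C caps and 1.93 ± 0.41 (limma adjusted p = 0.0065) in the injected pair. In that pair 2 of the 16 were higher, etv4 and ets1, and the median of the list was -0.09 in AcRA over C caps and 0.40 in the injected pair. Between injected and uninjected caps ets1 was lower in lhx1-AS over C caps (-1.20) and jund higher on the lhx1-AS/AcRA-labelled arrays over AcRA caps (1.96; limma adjusted p = 0.0262 and 0.0158). Of 19 measured genes of the RAS-MAPK cascade 1 was higher with AcRA in each pair, the kinase src, by 1.41 in AcRA over C caps and 1.37 in the injected pair (limma adjusted p = 0.0024 and 0.00197). The GTPase nras was higher in both comparisons of injected with uninjected caps, with 1.95 on the lhx1-AS/AcRA-labelled arrays over AcRA caps and 1.86 in lhx1-AS over C caps (limma adjusted p = 0.00726 and 0.0146). The kinase yes1 was lower in both, and rps6ka1, which ERK activates, in the first. The median of the cascade was -0.06 in AcRA over C caps and 0.21 in the injected pair.

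Of 14 measured modulators of FGF signalling, 3 were higher in both AcRA comparisons and none lower, namely the glypican gpc4 and the RNA-binding proteins lin28a and lin28b, while the median of the list was 0.31 in AcRA over C caps and -0.0071 in the injected pair. The heparan sulphate proteoglycans sdc4 and sdc2 moved with the injection, in opposite directions. The signal of sdc4 was 1459, 1390.0 and 1366 on the lhx1-AS/AcRA-labelled arrays, 492, 545 and 687 in AcRA caps, 1671, 1230.3 and 1630.3 in lhx1-AS caps and 496, 655 and 406 in C caps. For sdc2 it was 167, 275 and 157 on the lhx1-AS/AcRA-labelled arrays, 795, 640.1 and 745 in AcRA caps, 190.3, 319.9 and 195 in lhx1-AS caps and 844, 904 and 539 in C caps. Injected and uninjected arrays did not overlap for either gene. For sdc4 the log2 fold change was 1.30 on the lhx1-AS/AcRA-labelled arrays over AcRA caps and 1.56 in lhx1-AS over C caps (limma adjusted p = 0.00384 and 0.00248), and for sdc2 it was -1.90 and -1.70 (limma adjusted p = 0.00199 and 0.0071).

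Of 14 measured effectors of Eph and ephrin signalling, 2 were higher in AcRA over C caps (crkl and pard6g) and none lower, with a median of 0.16, and 1 (crkl) was higher in the injected pair, with a median of 0.38. The adaptor crkl, which also acts below FGF receptors, was highest on the lhx1-AS/AcRA-labelled arrays, at 1987, 2074 and 2600.1, against 638, 993 and 775 in AcRA caps, 429, 431 and 510.3 in lhx1-AS caps and 463, 316 and 367 in C caps. It was higher by 1.48 ± 0.25 (limma adjusted p = 0.00186) than in AcRA caps and by 2.28 ± 0.25 (limma adjusted p = 3.68e-05) than in lhx1-AS caps. The protease adam10, which cleaves ephrins, was lower in both comparisons of injected with uninjected caps, with log2 fold changes of -1.90 against AcRA caps and -1.53 against C caps (limma adjusted p = 0.00751 and 0.0319).

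Among 19 measured receptor kinases and ligands outside the families above, 3 were higher (ror2, mst1 and ntrk2) and 1 lower (kit) in AcRA over C caps, with a median of 0.02, and 2 were higher (ror2 and mst1) and 3 lower (kitlg, gas6 and angpt4) in the injected pair, with a median of 0.12. The signal of ror2, a Wnt5a receptor of convergent extension movements, was 2407, 956 and 1029 on the lhx1-AS/AcRA-labelled arrays, 1171, 1508 and 1267 in AcRA caps, 3.19, 10.9 and 4.56 in lhx1-AS caps and 28.4, 5.66 and 4.78 in C caps. Untreated arrays lay far below treated ones, and the log2 fold change was 7.16 ± 0.67 (limma adjusted p = 2.32e-05) in AcRA over C caps and 7.94 ± 0.67 (limma adjusted p = 3.54e-06) in the injected pair. Against AcRA caps 3 were lower on the lhx1-AS/AcRA-labelled arrays and none higher, namely kitlg, gas6 and ntrk2. For kitlg, the ligand of the receptor kit, the signal there was 53.0, 206 and 9.93, against 647, 547 and 604 in AcRA caps, 533, 594 and 496 in lhx1-AS caps and 866, 1382 and 820.2 in C caps. All 3 lhx1-AS/AcRA-labelled arrays were below those of the other groups, with a log2 fold change of -3.65 ± 0.73 (limma adjusted p = 0.00539) against AcRA caps. In lhx1-AS over C caps none of the 19 was called.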

How the data were processed

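Total RNA of 12 pooled caps per sample was hybridised to the Affymetrix GeneChip Xenopus laevis array, 12 arrays in all. The authors deposited 1 linear signal intensity per probe set and array, quantified and normalized with GCOS (version not given in the sources used here), without detection calls. The 2%-trimmed mean of the signals was the same on each array, so a change of total RNA per cap cannot be seen. How strongly probes cross-hybridise between homeologs is not known from these values.

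Control probe sets (108 of 15611) were left out. Gene symbols came from the platform annotation: 9304 probe sets had 1 symbol, 195 several and 6112 none. Signals were raised to at least 1 (0.298% were below it) and log2 transformed. Group means were fitted on all 12 arrays with limma 3.58.1 (lmFit, eBayes with a variance trend; R 4.3.3), and p-values were adjusted by Benjamini-Hochberg over 15503 probe sets, with calls under 0.05. As each RNA pools caps, p-values refer to the spread between pools of 3 experiments. The fit was also run on simulated arrays drawn independently, with no experiment effect, so that run says nothing about the pairing by experiment.

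Genes were described with every array's signal where they were called and a group mean reached 100, and more briefly where called below that or where among the 3 uncalled genes of a role with the highest mean signal. Beyond that rule, every array's signal was also given for flt1, fgf20, spry2, efna3 and epha2, and fgf2 was given with those of lhx1-AS and C caps. Although the 44 genes follow a rule on names, the genes and lists were chosen with earlier results of these data known. The shares called among them are not free of that choice.

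The labels number the experiments I to III in each group. Deviations from the group means correlated at 0.152 to 0.269 in the 18 pairs of arrays of 1 experiment and at -0.19 to -0.0037 in the 36 other pairs, so the experiment paired the arrays. It was used as a block in an alternative fit, while the calls reported are those of the fit without it unless said otherwise. Other alternatives were quantile normalization, scaling to 1 median, offsets of 16 and 64, no variance trend, testing without the 40% dimmest probe sets, the compared groups alone, the methods' t-test, and leaving out each array in turn. The t-test was run here on log2 signals with equal variances and without the fold thresholds that the methods add. It is therefore not the full selection of the methods.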

Additional observations from a re-analysis of the deposited data

Results flagged for a closer look

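The AcRA response of the FGF receptor fgfr2 differed between injected and uninjected caps when the experiment was a block in the limma fit. The response was 0.70 on the lhx1-AS/AcRA-labelled arrays over lhx1-AS caps and -0.85 in AcRA over C caps on the log2 scale. Their difference was 1.56 (standard error without the block 0.54, limma adjusted p = 0.0282 with the block and 0.396 without it) and was positive in 3 of 3 experiments. The second fgfr2 probe set gave 1.17, with limma adjusted p = 0.418 with the block.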

How the results depend on the processing

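All 25 calls of the 44 genes kept their direction in every alternative that tested them. The calls of dusp6, igf2, igf3 and flt1 had no test in the alternative without the dimmest probe sets, which left these genes out. No call held in the methods' t-test after Benjamini-Hochberg adjustment, which gave 0 calls in each of the 4 comparisons. Of the 25 calls, 16 held in every other alternative that tested them, those of igf2 and igf3 in the injected pair included. Without the variance trend the calls of dusp6, flt1 and pdgfa in AcRA over C caps were lost. So were those of dusp6 in the injected pair, fgfr1 against AcRA caps and efna1 in lhx1-AS over C caps. Fitting only the compared groups lost flt1 and igf2 in AcRA over C caps, efna1 and pdgfra in lhx1-AS over C caps, and dusp6 in the injected pair. The t-test without adjustment lost flt1 in AcRA over C caps and dusp6 in the injected pair. In AcRA over C caps 9 genes were called, and 8 higher and 3 lower with the experiment as a replicate block. With 1 array left out 5 to 9 were called (5 without the AcRA array of experiment II or the C array of experiment I or II). On the lhx1-AS/AcRA-labelled arrays over AcRA caps 3 were called, 6 with the experiment as a replicate block, 5 with 16 and 6 with 64 added to the signals, 14 in the methods' t-test without adjustment, and 2 to 4 without 1 array. In lhx1-AS over C caps 3 were called, 5 with the block, 1 when only these groups were fitted, 5 in the unadjusted t-test, and 1 to 4 without 1 array (1 without the lhx1-AS array of experiment III). On the lhx1-AS/AcRA-labelled arrays over lhx1-AS caps 10 were called, 10 higher and 2 lower with the block, and 9 to 11 without 1 array. For the difference of the AcRA responses 0 were called, 1 with the block and 0 without any 1 array; the t-test and the fit of compared groups alone were not run for it. The share of all gene names was not counted for the offsets, the t-test, the compared groups alone or the left-out arrays. Nor was it counted for the block in AcRA over C caps and in the injected pair. Those counts describe only how calls depend on the setting and give no comparison with the array at large. The block made 10 further calls, those given as passing with it in the report, and changed no other call of a gene's brightest probe set. The cause of these shifts was not tested. Scaling each array to 1 median moved the median of all probe sets to 0.26 on the lhx1-AS/AcRA-labelled arrays over AcRA caps and to 0.24 in lhx1-AS over C caps. It split the calls over all probe sets into 736 higher and 750 lower in the first (419 and 1076 as reported; 515 and 910 after quantile normalization) and 787 and 477 in the second (391 and 693 as reported; 507 and 577 after quantile normalization). There were 3 arrays a group and no detection calls, which limits what can be seen among signals near the lowest. Of the 17 genes with all group means under 100, 1 was called. The share called among all gene names that dim was not counted, and the part of low signal in missing calls was not tested.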
